A study of Mus musculus with 24 samples.

Results

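The urea cycle and the steps of amino acid breakdown next to it were followed through 10 genes in mouse liver. Cps1, Otc, Ass1, Asl and Arg1 encode the enzymes of the cycle, Nags the enzyme that makes the activator of Cps1, Gls2 and Glul the enzymes that release and capture ammonia, Oat an enzyme of ornithine breakdown and Ddc the decarboxylase of aromatic amino acids. A gene was read from probe sets annotated with exactly 1 gene symbol, and where several were present the 1 with the highest mean over 23 arrays was used. Of the 10 genes, 9 were measured in this way, among 22180 genes with such a probe set, and they held 11 of the 41345 probe sets of the array. Gls2 was not analysed here.

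Liver RNA of male C57BL/6J mice, without any transgene, was hybridised to Affymetrix whole-transcript arrays (Mouse Gene 2.0 ST), and each array held a single mouse. The mice ate a control diet, a high fat diet (HFD) with eicosapentaenoic and docosahexaenoic acid (HFD-EPA/DHA) or a high fat diet with corn oil (HFD-corn oil). Each diet was fed for 8 or 12 weeks, with 4 mice in each of the 6 groups and 24 arrays in all. The mice fed for 8 and for 12 weeks came from separate studies, which began at an age of 9 and 10 weeks. The mice were killed with pentobarbital, and isoflurane anaesthesia on the same day is described for the 12-week mice alone. Time therefore cannot be told apart from study or from this anaesthesia. Both HFDs also contained added cholesterol and more sucrose than the control diet, with a nearly equal share of energy from protein, so the fats cannot be told apart from these ingredients in a comparison with control. The arrayed mice had been picked in each group by body weight and plasma lipids, and food was withdrawn on the morning of sampling. A whole liver holds several cell types, so fewer cells of a type and less RNA per cell cannot be told apart in any value below.

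At 8 weeks, replicate 3 of the HFD-corn oil mice, which the study also removed, entered no fit or mean, which leaves 23 arrays and 3 in that group. It correlated with the other arrays at 0.935 to 0.944, whereas the 23 correlated with each other at 0.979 to 0.991. For 5 of the 9 measured members its value lay outside the range of the 23 arrays. Its Otc signal was 10.80, which was lower by 1.84 than the mean of the other 3 arrays of its group, and its Cps1, Arg1 and Oat signals of 13.24, 11.53 and 12.20 were also below the range of the 23. Its Nags signal of 10.76 was above that range. All values are log2 signals as deposited, where a difference of 1 is a factor of 2 (the scale was read from the range of the values, 4.394 to 13.93).

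The urea cycle turns ammonia, the toxic product of amino acid breakdown, into urea, and it runs in hepatocytes. Cps1 and Otc catalyse the first steps inside the mitochondrion, and Ass1, Asl and Arg1 the later ones in the cytosol. The cycle is strongest in hepatocytes near the portal vein, whereas Glul, which binds leftover ammonia into glutamine, is confined to hepatocytes around the central vein. The genes of the cycle are known to be raised by protein intake, fasting, glucagon and glucocorticoids.

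The members differed widely in level and in spread between mice. Ddc rose on HFD-EPA/DHA vs. control at 8 weeks, 2.11-fold (95% CI 1.59 to 2.81, n = 4 and 4, limma adjusted p = 0.00856), and also in the mean of both times. With the probe set used for each gene, none of the 5 enzymes of the cycle, Nags, Glul or Oat passed the threshold in any comparison. A dimmer probe set of Glul passed on HFD-EPA/DHA vs. control at 12 weeks, as given below. Cps1 had the highest mean signal of the 22180 genes. Its difference from control was between −0.06 and 0.03 on the log2 scale for either HFD at either time. Otc was slightly higher on HFD-EPA/DHA vs. control, by 0.10 at 8 weeks and 0.11 at 12 weeks, with no overlap between the arrays and without passing the test.

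A gene was called where its p from limma's moderated test, adjusted over all 41345 probe sets by the Benjamini-Hochberg procedure, was under 0.05. On HFD-EPA/DHA vs. control, 1 of the 9 members was called at 8 weeks (Ddc, higher), where 0.443% of all probe sets were called. At 12 weeks 0 of 9 were called against 0.617% of all, and none of the 9 had an unadjusted p under 0.05. In the mean of both times 1 of 9 (Ddc, higher) was called against 2.1% of all, and 3 had an unadjusted p under 0.05 (Ddc, Otc and Glul). On HFD-corn oil vs. control, 0 of 9 were called at 8 weeks, at 12 weeks and in the mean of both times, where 0.738%, 0.179% and 1.91% of all probe sets were called. The numbers of members with an unadjusted p under 0.05 in these comparisons were 2, 0 and 2. Between the HFDs 0 of 9 were called, against 0.0266% of all at 8 weeks, 0.00967% at 12 weeks and 0.0653% in the mean of both times, with an unadjusted p under 0.05 for 1, 0 and 1 member. Of all 41345 probe sets, an unadjusted p under 0.05 was found at 8 weeks, at 12 weeks and in the mean of both times as follows. The numbers were 3329, 3490 and 4126 on HFD-EPA/DHA vs. control, 3402, 3528 and 5032 on HFD-corn oil vs. control, and 2862, 1913 and 2979 between the HFDs. With 9 members and so few calls over the whole array, these counts do not set the members apart from other genes.

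No member was called in the change of a diet difference from 8 to 12 weeks, where 0% of all probe sets were called for each of the 3 pairs of diets. No member was called at 12 vs. 8 weeks within a diet either, where 0.00967% of all probe sets were called in control mice and 0% on each HFD. At an unadjusted p under 0.05, 1 member was found for the change of each HFD vs. control (Ddc in both), 0 for the change between the HFDs, 1 for control mice (Ddc) and 0 for either HFD.

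**Figure D1:**
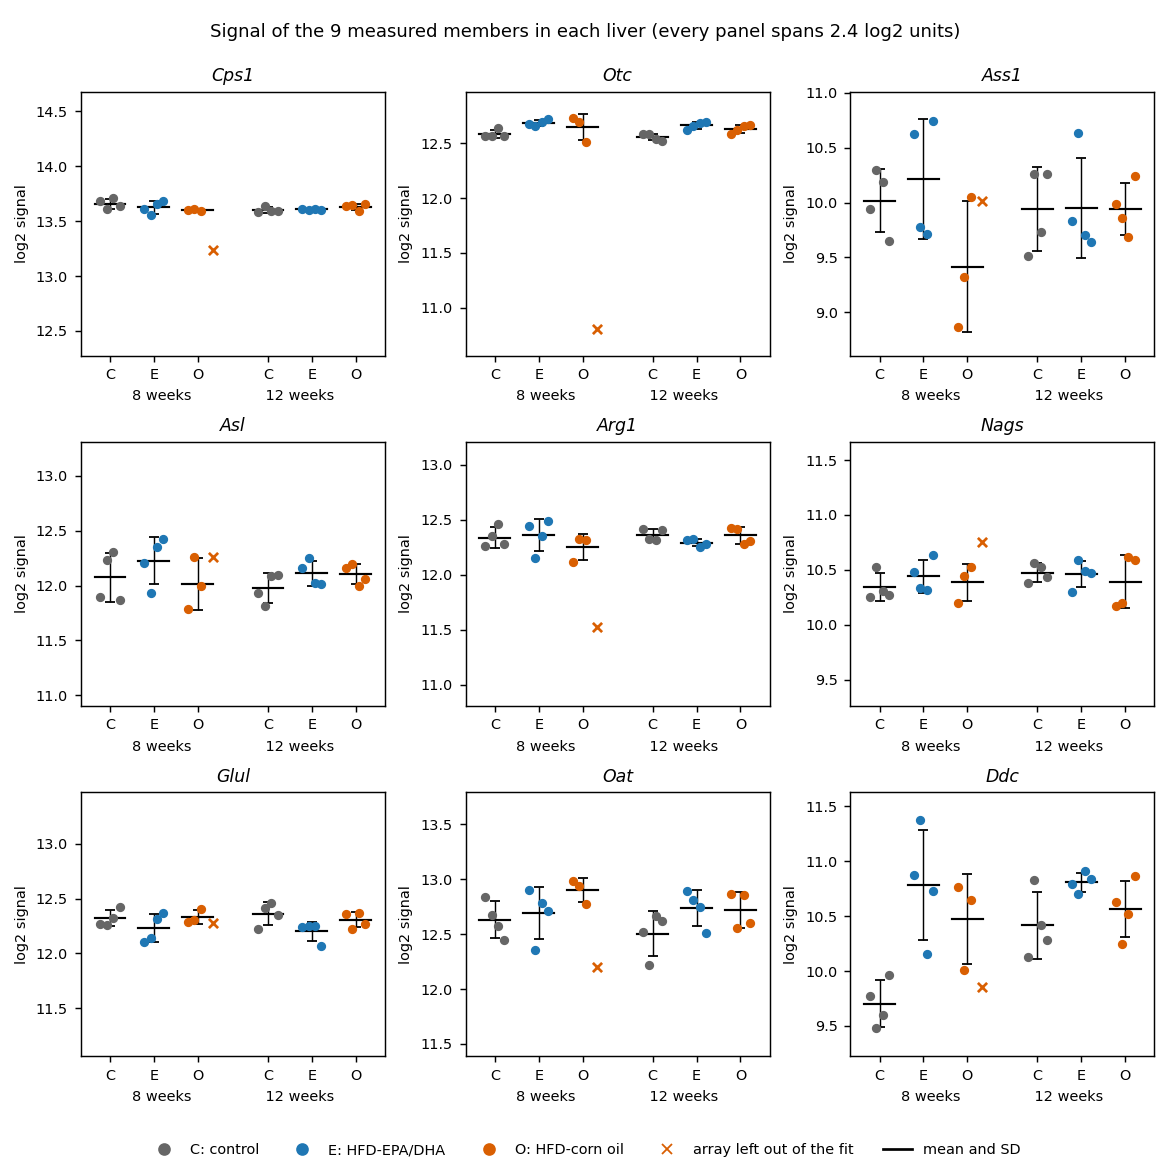
Log2 signal of the 9 measured members in every mouse, by diet (C, control; E, HFD-EPA/DHA; O, HFD-corn oil) and time. Points are single mice, bars are the group mean and SD, and the cross is the array left out of the fit. All panels span the same 2.4 log2 units, so that the flat rows of Cps1 and Otc can be set beside the wide ones of Ass1 and Ddc.

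Cps1, carbamoyl phosphate synthetase 1, commits ammonia to the cycle and is among the most abundant proteins of liver mitochondria. The gene, on chromosome 1, had the highest mean signal of all 22180 genes, 13.62 over the 23 arrays. At 8 weeks its signals were 13.61, 13.63, 13.68 and 13.71 in control mice, 13.55, 13.61, 13.65 and 13.68 on HFD-EPA/DHA, and 13.59, 13.60 and 13.61 on HFD-corn oil. At 12 weeks they ran from 13.58 to 13.64 in control mice, from 13.60 to 13.61 on HFD-EPA/DHA and from 13.59 to 13.65 on HFD-corn oil. The groups overlapped throughout, and the highest and lowest of the 23 arrays differed by a factor of 1.12. The SD within groups was 0.035, smaller than for all but 0.4% of the 500 genes nearest to it in level. Whether a signal at the top of the scale still follows the amount of RNA in proportion was not tested.

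Otc, ornithine transcarbamylase, joins carbamoyl phosphate to ornithine, and the gene lies on the X chromosome. At 8 weeks control mice had 12.56, 12.56, 12.57 and 12.63, and HFD-EPA/DHA mice had 12.66, 12.67, 12.69 and 12.72. At 12 weeks control mice had 12.52, 12.54, 12.58 and 12.58, and HFD-EPA/DHA mice had 12.62, 12.66, 12.69 and 12.69. Every HFD-EPA/DHA mouse was therefore above every control mouse of its time. On HFD-corn oil the signals were 12.51, 12.69 and 12.73 at 8 weeks and 12.58, 12.62, 12.65 and 12.66 at 12 weeks, which overlapped with both other diets at both times. The difference of HFD-EPA/DHA vs. control was 0.10 ± 0.064 (SE) at 8 weeks (limma adjusted p = 0.763), 0.11 ± 0.064 at 12 weeks (adjusted p = 0.721) and 0.11 in the mean of both times (95% CI 0.01 to 0.20, unadjusted p = 0.0284, adjusted p = 0.389). It did not pass the threshold under any of the 11 other settings or with any array left out, and the sign was positive in each. Its SD within groups was 0.050, and limma drew this small spread towards that of all probe sets.

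Ass1, argininosuccinate synthetase, adds aspartate and is often described as the rate-limiting enzyme of the cycle. It was the least strongly hybridising member (chromosome 2, mean 9.93) and had the widest spread between mice. At 8 weeks control mice had 9.65, 9.94, 10.18 and 10.30, HFD-EPA/DHA mice had 9.71, 9.78, 10.62 and 10.75, and HFD-corn oil mice had 8.87, 9.33 and 10.05. At 12 weeks the signals ran from 9.51 to 10.26 in control mice, from 9.65 to 10.63 on HFD-EPA/DHA and from 9.68 to 10.24 on HFD-corn oil. The low values at 8 weeks came from 2 of the 3 HFD-corn oil mice, and no pair of groups was free of overlap. The left-out mouse of that group had 10.01, inside the control range at 8 weeks. At 8 weeks HFD-EPA/DHA exceeded HFD-corn oil by 0.80 ± 0.28 (95% CI 0.22 to 1.38, unadjusted p = 0.00932, adjusted p = 0.687), and at 12 weeks by 0.01 ± 0.26. HFD-corn oil vs. control at 8 weeks was −0.60 ± 0.28 (adjusted p = 0.586). The SD within groups was 0.43, above that of 97.8% of the 500 genes nearest in level.

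The window around the start of Ass1 is shown because this member varied most between mice of a group. RefSeq (GRCm38.p6) gives it at chr2:31470020-31470319 on the plus strand, 250 bases before and 50 after the start, with 74% G or C. Capitals mark GGGCGG, the GC box, and CACGTG, a palindromic E box.
Ass1: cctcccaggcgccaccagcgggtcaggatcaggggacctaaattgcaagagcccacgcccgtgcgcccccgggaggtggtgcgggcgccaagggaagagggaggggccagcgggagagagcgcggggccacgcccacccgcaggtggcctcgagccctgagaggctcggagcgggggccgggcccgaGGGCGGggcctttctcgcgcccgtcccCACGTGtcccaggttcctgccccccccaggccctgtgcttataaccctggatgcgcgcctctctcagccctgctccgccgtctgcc
The GC box began 63 and the E box 36 bases before the start. GGGCGG or its complement was present in 35.7% and CACGTG in 7.15% of the 32851 windows of this length. A match describes the letters and not a bound site.

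Asl, argininosuccinate lyase, splits off fumarate and leaves arginine (chromosome 5). Its signals ran from 11.87 to 12.31 in control, 11.93 to 12.42 in HFD-EPA/DHA and 11.79 to 12.26 in HFD-corn oil mice at 8 weeks, and from 11.81 to 12.09, 12.01 to 12.25 and 12.00 to 12.20 at 12 weeks. All groups overlapped, and HFD-EPA/DHA vs. control was 0.14 in the mean of both times (95% CI −0.03 to 0.32, adjusted p = 0.651). Arg1, arginase 1, releases urea and regenerates ornithine (chromosome 10). Its 23 signals lay between 12.11 and 12.49, and the largest difference between group means was 0.11. HFD-EPA/DHA vs. control was −0.02 (95% CI −0.14 to 0.09) and HFD-corn oil vs. control −0.05 (95% CI −0.17 to 0.07) in the mean of both times. The groups overlapped for Arg1 too, and neither gene passed the threshold in any comparison.

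Nags, N-acetylglutamate synthase, supplies the activator without which Cps1 is inactive (chromosome 11). Its signals ran from 10.25 to 10.53 in control mice and from 10.32 to 10.63 on HFD-EPA/DHA at 8 weeks, and from 10.38 to 10.56 and from 10.30 to 10.59 at 12 weeks. On HFD-corn oil they were 10.20, 10.44 and 10.52 at 8 weeks and 10.17, 10.20, 10.59 and 10.62 at 12 weeks, where 2 mice were low and 2 high. HFD-EPA/DHA vs. control was 0.04 and HFD-corn oil vs. control −0.02 in the mean of both times, both inside 95% CIs that held 0. A dimmer probe set of Nags (mean 8.23) gave 0.06 and 0.03.

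Glul, glutamine synthetase, is the pericentral counterpart of the cycle (chromosome 1). At 12 weeks control mice had 12.22, 12.35, 12.41 and 12.46, HFD-EPA/DHA mice 12.07, 12.24, 12.25 and 12.25, and HFD-corn oil mice 12.23, 12.27, 12.36 and 12.37. The HFD-EPA/DHA mice were at the low end but overlapped with the lowest control mouse. The difference from control was −0.16 ± 0.079 at 12 weeks (adjusted p = 0.609), −0.09 ± 0.079 at 8 weeks (adjusted p = 0.88) and −0.12 in the mean of both times (95% CI −0.24 to −0.01, unadjusted p = 0.0353, adjusted p = 0.434). A dimmer probe set of Glul (mean 8.32), which the rule did not take, passed the threshold at 12 weeks with −0.45 ± 0.11 on HFD-EPA/DHA vs. control (adjusted p = 0.0479) and gave −0.07 at 8 weeks. At 12 weeks its signals ran from 7.84 to 8.30 on HFD-EPA/DHA and from 8.40 to 8.81 in control mice. Groups without overlap made up 4.91% of all probe sets in this comparison. The probe sets had the same sign and differed in size and in the call, so the level of Glul at 12 weeks is uncertain.

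Oat, ornithine aminotransferase, diverts ornithine from the cycle to glutamate and is also a pericentral enzyme (chromosome 7). At 8 weeks control mice had 12.44, 12.57, 12.67 and 12.84, HFD-EPA/DHA mice 12.36, 12.71, 12.79 and 12.91, and HFD-corn oil mice 12.77, 12.94 and 12.98. At 12 weeks control mice had 12.22, 12.52, 12.62 and 12.67, HFD-EPA/DHA mice 12.51, 12.74, 12.81 and 12.89, and HFD-corn oil mice 12.56, 12.60, 12.86 and 12.86. Both HFDs were higher on average and overlapped with control at both times. HFD-corn oil vs. control was 0.24 ± 0.09 in the mean of both times (95% CI 0.06 to 0.43, unadjusted p = 0.0133, adjusted p = 0.232), and HFD-EPA/DHA vs. control was 0.15 ± 0.086 (adjusted p = 0.643).

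Ddc, aromatic L-amino acid decarboxylase, makes dopamine from L-DOPA and serotonin from 5-hydroxytryptophan. Outside the nervous system it is also present in liver and kidney, and in rat and human the neuronal and non-neuronal transcripts are known to start from alternative first exons. The gene (chromosome 11) had a mean signal of 10.46, rank 2064 of 22180. The windows around its 2 starts in RefSeq (GRCm38.p6, minus strand, 250 bases before and 50 after the start) are shown because Ddc was the only member called. Which of the starts its probe set reads was not tested. Both strands were searched. Capitals mark TGACCT, which reads AGGTCA on the other strand and is the core element of many nuclear receptors. They also mark TTTATA, which reads TATAAA on the other strand (the TATA box). In the downstream window they mark ATTGG, which reads CCAAT on the other strand (the CCAAT box).
Ddc, upstream start, chr11:11898095-11898394: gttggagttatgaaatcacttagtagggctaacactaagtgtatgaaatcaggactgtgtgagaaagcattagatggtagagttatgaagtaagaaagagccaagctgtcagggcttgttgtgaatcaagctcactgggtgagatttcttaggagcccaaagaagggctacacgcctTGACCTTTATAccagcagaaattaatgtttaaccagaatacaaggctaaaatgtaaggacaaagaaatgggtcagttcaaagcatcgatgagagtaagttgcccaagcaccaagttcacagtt
Ddc, downstream start, chr11:11890359-11890658: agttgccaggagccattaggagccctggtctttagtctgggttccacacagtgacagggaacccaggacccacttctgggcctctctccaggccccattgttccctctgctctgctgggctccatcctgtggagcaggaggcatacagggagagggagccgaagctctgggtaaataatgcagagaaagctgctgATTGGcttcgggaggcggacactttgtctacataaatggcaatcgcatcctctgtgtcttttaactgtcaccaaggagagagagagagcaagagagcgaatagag
In the upstream window TGACCT began 73 and TTTATA 68 bases before the start, and they shared 1 base. In the downstream window ATTGG began 55 bases before the start. AGGTCA was found in 16.3%, TATAAA in 13.6% and CCAAT in 37.4% of all 32851 windows on either strand, and neither Ddc window held GGGCGG or CACGTG. Windows were given for 6 of the 9 measured members.

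In control mice the Ddc signals at 8 weeks were 9.48, 9.60, 9.77 and 9.97. On HFD-EPA/DHA they were 10.15, 10.73, 10.88 and 11.37, and on HFD-corn oil 10.01, 10.65 and 10.77. Each of these mice on either HFD was above every control mouse, and the HFDs overlapped with each other. The left-out HFD-corn oil mouse had 9.85, inside the control range. At 12 weeks the signals were 10.13, 10.28, 10.42 and 10.83 in control mice, 10.70, 10.79, 10.84 and 10.91 on HFD-EPA/DHA, and 10.25, 10.52, 10.63 and 10.86 on HFD-corn oil. Here the diets overlapped, since 1 control mouse reached the HFD-EPA/DHA values. The SD was 0.50 on HFD-EPA/DHA at 8 weeks and 0.087 at 12 weeks.

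HFD-EPA/DHA vs. control was 1.08 ± 0.20 for Ddc at 8 weeks (95% CI 0.67 to 1.49, adjusted p = 0.00856) and 0.74 ± 0.14 in the mean of both times (adjusted p = 0.00377), which is higher by a factor of 1.67 (95% CI 1.36 to 2.04). At 12 weeks it was 0.39 ± 0.20 (95% CI −0.02 to 0.81, adjusted p = 0.624). With each array left out in turn the 8-week difference ran from 0.88 to 1.29 with adjusted p from 0.000974 to 0.0447, and it passed in all 23 refits. HFD-corn oil vs. control was 0.77 ± 0.21 at 8 weeks (95% CI 0.33 to 1.22, adjusted p = 0.119) and 0.15 ± 0.20 at 12 weeks (adjusted p = 0.899). The difference between the HFDs was 0.31 ± 0.21 at 8 weeks (95% CI −0.14 to 0.75, adjusted p = 0.787) and 0.24 ± 0.20 at 12 weeks (95% CI −0.17 to 0.66), so Ddc is not shown to differ between the kinds of fat.

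Ddc in control mice was itself higher at 12 than at 8 weeks by 0.71 ± 0.20 without overlap between the arrays (unadjusted p = 0.00156, adjusted p = 0.366), whereas its 12 vs. 8 week difference was 0.03 ± 0.20 with HFD-EPA/DHA and 0.09 ± 0.21 with HFD-corn oil. The change of HFD-EPA/DHA vs. control from 8 to 12 weeks was −0.68 ± 0.28 (unadjusted p = 0.0232, adjusted p = 0.983). The difference between the times is therefore not shown by the test, and the low group among the 6 was control at 8 weeks. Among control mice 1 of 9 members (Ddc) had no overlap between the times, against 3.68% of all probe sets. With either HFD the count was 0 of 9, against 2.81% (HFD-EPA/DHA) and 4.68% (HFD-corn oil).

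Over the diets, arrays without overlap were counted in the same way. HFD-EPA/DHA vs. control had 2 of 9 members at 8 weeks (Otc and Ddc, both higher) against 4.15% of all probe sets, and 1 of 9 at 12 weeks (Otc, higher) against 4.91%. Otc was the only member without overlap in 1 direction at both times, a pattern that 0.827% of all probe sets had. HFD-corn oil vs. control had 1 of 9 at 8 weeks (Ddc, higher), where the group held 3 arrays without the left-out one and 9.13% of all probe sets met the count, and 0 of 9 at 12 weeks against 4.59%. The HFDs had 0 of 9 without overlap with each other at both times, against 7.72% and 2.9% of all.

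**Figure D2:**
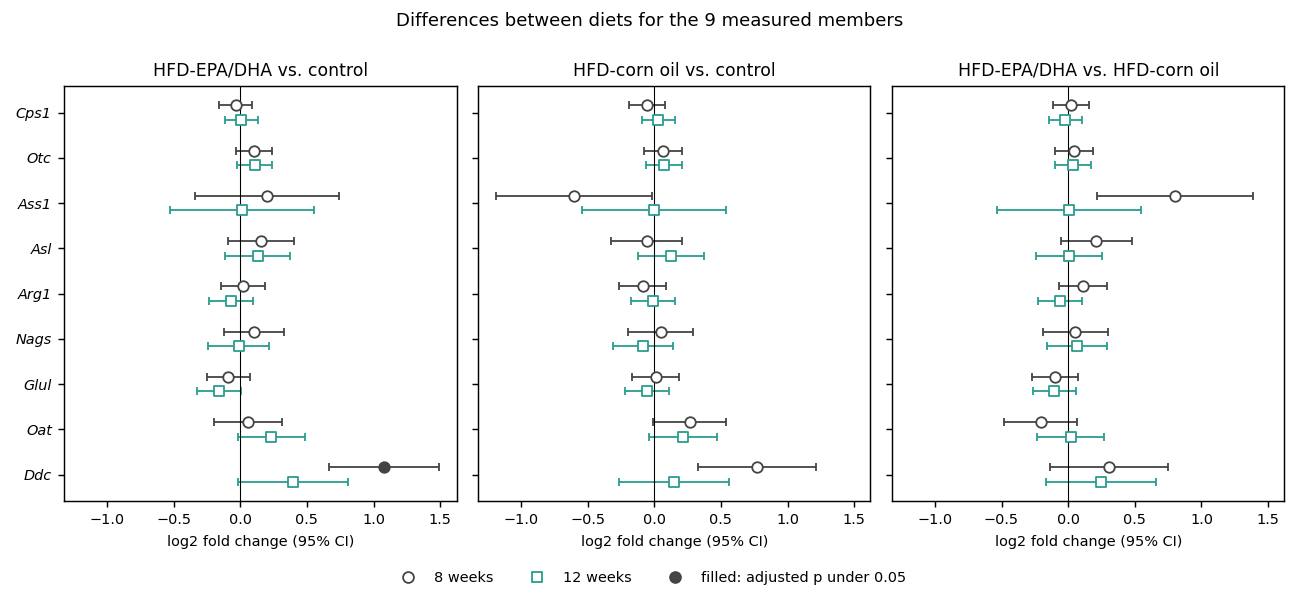
Log2 fold change with 95% CI for the 9 measured members in the 3 comparisons of diets, at 8 weeks (circles) and 12 weeks (squares). The filled point, Ddc on HFD-EPA/DHA vs. control at 8 weeks (1.08), is the only 1 with an adjusted p under 0.05, and the intervals are narrowest for Cps1 and widest for Ass1.

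Signal and spread between mice went together only in part. The highest SD within groups was that of Ass1 (0.43), followed by Ddc (0.32), and these were above those of 99.17% and 98.02% of all genes. Oat (0.18), Asl (0.18) and Nags (0.16) were above 78.2%, 74.8% and 57.7%. Arg1 (0.094) and Glul (0.091) were above 6.89% and 5.86%, and Otc (0.050) and Cps1 (0.035) above 0.135% and 0.00902%. Bright genes have a small SD on this array, and among the 500 genes nearest in level Arg1 and Glul were ordinary, above 51.2% and 47.4%. Otc and Cps1 were above only 4.2% and 0.4% of such genes, and Asl and Oat above 86.2% and 88.6%. Enzymes of successive steps of the cycle were thus at both ends, with a range over the 23 mice of 1.12-fold for Cps1, 1.16-fold for Otc, 3.68-fold for Ass1 and 1.55-fold for Asl.

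**Figure D3:**
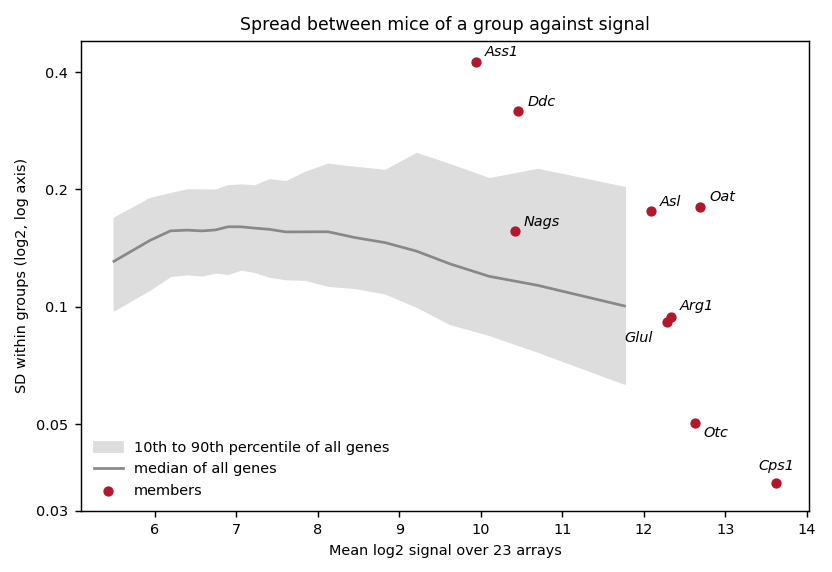
SD within groups (log2, on a log axis) against mean log2 signal over the 23 arrays. The grey line and band are the median and the 10th to 90th percentile of 22180 genes in 20 classes of level, and red points are the members. Ass1 (0.43) and Ddc (0.32) lie above the band, and Cps1 (0.035) and Otc (0.050) lie below its lower edge at the highest levels.

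For each member the 2 genes with the most similar signals over the 23 arrays were sought, as a description of arrays that share 1 normalization and come from 2 studies. Ddc was followed most closely by Mreg (r = 0.91, and 0.94 and 0.89 within 8 and 12 weeks) and Mocos (r = 0.89), of which Mocos encodes the enzyme that activates molybdenum enzymes and Mreg is among the genes that the study picked from these samples. Otc was followed by Gna12 (r = 0.86) and by Acadsb (r = 0.82), an enzyme of isoleucine breakdown. Ass1 was followed by Klf3 (r = 0.79), a transcription factor, and by Tat (r = 0.78), the aminotransferase that starts tyrosine breakdown. After the group means were removed, the r of Ass1 with Tat was 0.81, so that the mice of a group with high Ass1 also had high Tat. Oat was followed by Mpc1 (r = 0.83), a subunit of the mitochondrial pyruvate carrier, and Lhpp (r = 0.80). Asl was followed by Crcp and Mpzl2 (r = 0.86 and 0.82), Nags by Cibar1 and Commd8 (0.87 and 0.85), Arg1 by Cdip1 and C1qtnf7 (0.79 and 0.77), and Glul by Tom1 and Nae1 (0.81 and 0.73). For Cps1 the values were 0.78 with 4930557J02Rik and 0.74 with Sec24a, and they dropped to 0.47 and 0.18 among the 12-week mice. No member was among the nearest genes of another.

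The wider pathway was described with 5 lists of genes. Among enzymes that break down the other amino acids, among them the branched-chain amino acids, lysine, histidine, serine, glycine and the sulfur amino acids, 43 of 46 were measured. In the mean of both times 8 of the 43 rose and 0 fell on HFD-EPA/DHA vs. control, and 5 rose and 0 fell on HFD-corn oil vs. control, beside 2.1% and 1.91% of all probe sets called. The median log2 fold change of the 43 was 0.09 and 0.07, against −0.0017 and −0.020 over all probe sets. Of the 43, 36 and 29 were above 0. At single times 1 gene, Mccc2, rose on each HFD at 12 weeks and none passed at 8 weeks. These comparisons share the control mice. The calls depended on the left-out array. With all 24 arrays in the fit and no array weights, none of the 6 genes named from this list passed in any comparison of diets. The differences of HFD-EPA/DHA vs. control were then the same and their SE larger (for Hibadh 0.11 in place of 0.049), whereas those of HFD-corn oil vs. control were 0.17 for Mccc2 and 0.14 for Hibadh in the mean of both times. With array weights, the lost calls were Mccc2 on HFD-corn oil at 12 weeks (adjusted p = 0.0591) and, in the mean of both times on HFD-EPA/DHA, Hibadh (adjusted p = 0.0588) and Aldh7a1 (adjusted p = 0.0576).

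Mccc2, a subunit of methylcrotonyl-CoA carboxylase in leucine breakdown, had 9.88, 9.88, 9.98 and 9.98 in control mice at 12 weeks, 10.23, 10.31, 10.37 and 10.42 on HFD-EPA/DHA and 10.34, 10.35, 10.39 and 10.42 on HFD-corn oil. Both HFDs lay wholly above control. The differences were 0.41 ± 0.084 (limma adjusted p = 0.016) and 0.45 ± 0.084 (adjusted p = 0.0215). They fell short of the threshold (adjusted p up to 0.073 and 0.0905) without 12-week replicate 2 or 4 of control, 1 or 2 of HFD-EPA/DHA, or 1, 3 or 4 of HFD-corn oil, each taken from its own comparison. At 8 weeks the differences were 0.14 and 0.17, with overlap. In the mean of both times they were 0.27 and 0.31 and passed without any 1 of the 23 arrays.

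Hibadh, which acts in valine breakdown, rose by 0.21 ± 0.049 (adjusted p = 0.0201) with HFD-EPA/DHA and by 0.27 ± 0.051 (adjusted p = 0.00531) with HFD-corn oil in the mean of both times. Gcdh, glutaryl-CoA dehydrogenase of lysine and tryptophan breakdown, rose by 0.24 ± 0.054 (adjusted p = 0.0156) and 0.27 ± 0.057 (adjusted p = 0.0101). The call of Hibadh on HFD-EPA/DHA was lost without control replicate 4 at 8 weeks (adjusted p = 0.0572). In the 23 arrays both genes, and also Bckdhb and Aldh7a1, had every mouse on HFD-corn oil above every control mouse at both times. On HFD-EPA/DHA the same held for Gcdh and Abat. Groups without overlap, in either direction, made up 9.13% and 4.59% of all probe sets on HFD-corn oil vs. control at 8 and 12 weeks. On HFD-EPA/DHA vs. control the shares were 4.15% and 4.91%, and 0.827% had no overlap in 1 direction at both times. That joint share was not computed for HFD-corn oil. The genes were named for a small p in these same comparisons, so the separation adds no support. The left-out mouse was at 11.33 for Hibadh and 11.86 for Gcdh, below all control mice at 8 weeks. Bckdhb, a subunit of the branched-chain keto acid dehydrogenase, rose by 0.25 ± 0.056 on HFD-corn oil (adjusted p = 0.0181, and 0.0512 without HFD-corn oil replicate 4 at 8 weeks). Its 0.20 ± 0.054 on HFD-EPA/DHA stood at the threshold (adjusted p 0.05 after rounding) and passed in only 2 of the 23 refits that each left out 1 array. Aldh7a1, a dehydrogenase of lysine breakdown, rose by 0.18 ± 0.048 (adjusted p = 0.0443) with HFD-EPA/DHA and by 0.21 ± 0.050 (adjusted p = 0.0283) with HFD-corn oil, and passed in 6 and 15 of the 23 refits. Abat, the transaminase of GABA and beta-alanine, rose by 0.23 ± 0.056 on HFD-EPA/DHA (adjusted p = 0.0228), passed in 18 of the 23 refits and gave 0.18 (adjusted p = 0.237) as the mean over all its probe sets. The other 2 genes that rose on HFD-EPA/DHA, named after their values were seen, were Shmt2 (0.24) and Aldh6a1 (0.20).

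**Figure D4:**
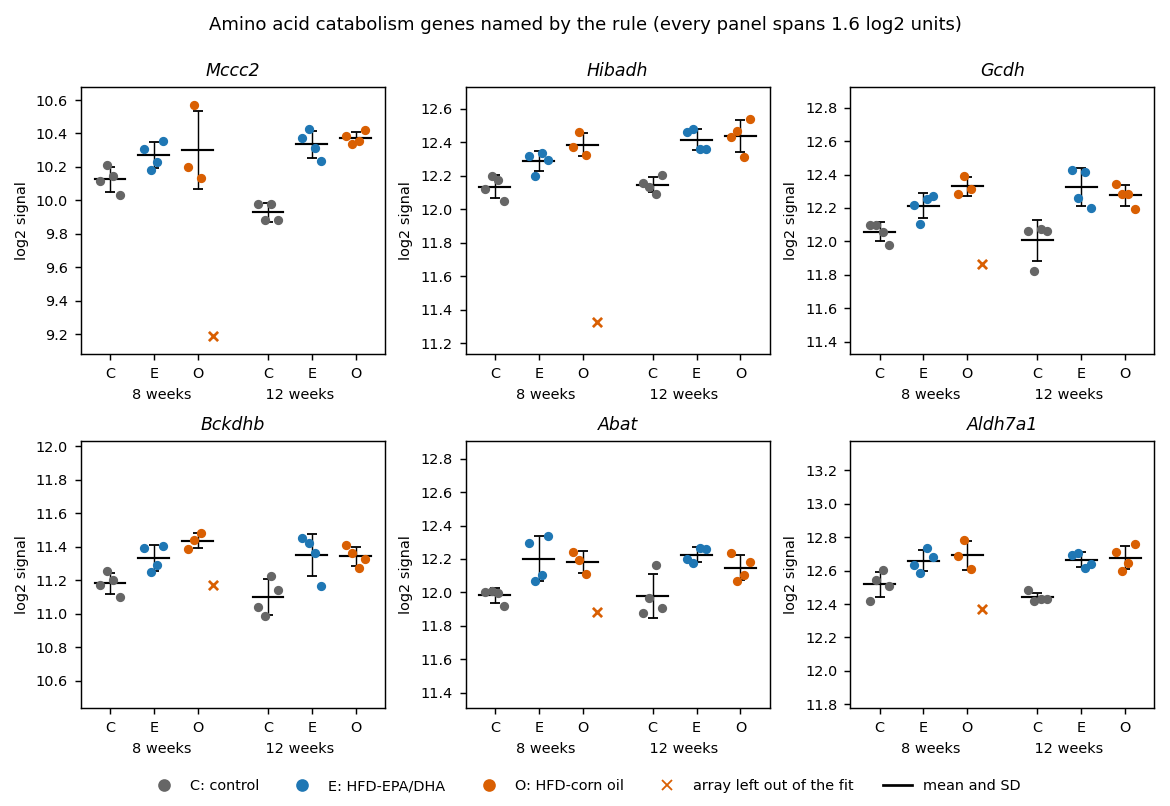
Log2 signal in every mouse of the 6 genes of amino acid catabolism named by the rule, by diet (C, control; E, HFD-EPA/DHA; O, HFD-corn oil) and time, with the group mean and SD; the cross is the array left out of the fit. All panels span 1.6 log2 units, and for Mccc2 at 12 weeks both HFDs (10.23 to 10.42) lie above the control mice (9.88 to 9.98).

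In the other 4 lists no gene passed the threshold in any comparison of diets. These were urea cycle partners and ammonia handling (17 of 19 measured), arginine, ornithine, proline and polyamine genes (15 of 20), aromatic amino acid and tryptophan genes (20 of 22) and regulators (18 of 18). In the mean of both times 2, 1, 6 and 3 of their genes had an unadjusted p under 0.05 on HFD-EPA/DHA vs. control, and 3, 1, 5 and 4 on HFD-corn oil vs. control. Of all 41345 probe sets, 4126 and 5032 had such a p in these comparisons. The gene with the smallest p of each list was Gpt, alanine aminotransferase (0.31 ± 0.097 on HFD-EPA/DHA vs. control, adjusted p = 0.134), Prodh, proline dehydrogenase (0.31 ± 0.087 on HFD-corn oil vs. control, adjusted p = 0.0636), Afmid, a formamidase of tryptophan breakdown (0.27 ± 0.073 on HFD-EPA/DHA vs. control, adjusted p = 0.052), and Ppargc1a, a coactivator of fasting metabolism (−0.72 ± 0.20 on HFD-EPA/DHA vs. control, adjusted p = 0.0631). The medians of the 4 lists on HFD-EPA/DHA vs. control lay between −0.0019 and 0.022, beside −0.0017 over all probe sets.

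Because the cycle is periportal and Glul and Oat are pericentral, markers of the zones were read beside them. Of 10 measured periportal genes, Hsd17b6 rose on HFD-EPA/DHA vs. control (0.76 ± 0.15 in the mean of both times, adjusted p = 0.0053) and Cdh1 fell on HFD-corn oil vs. control (−0.85 ± 0.22, adjusted p = 0.0401). Hsd17b6 is among the genes that the study picked from these samples, and the call of Cdh1 passed in 10 of the 23 refits. On HFD-EPA/DHA at 12 weeks Cdh1 ran from 8.55 to 10.09, below the 10.21 to 10.82 of control, where 4.91% of all probe sets had no overlap. This difference was not called in the main fit and passed under some other settings (limma adjusted p from 0.0296 to 0.0445). At 8 weeks these groups overlapped. Hsd17b6 was also called on HFD-EPA/DHA vs. control at 12 weeks (1.07 ± 0.22, adjusted p = 0.0136, 20 of the 23 refits) and between the HFDs in the mean of both times (0.89 ± 0.16, adjusted p = 0.0209, 16 of the 23 refits). With all 24 arrays and no weights these calls were lost too (adjusted p in the mean of both times vs. control 0.0758 for Hsd17b6 and 0.0575 for Cdh1). In the 23 arrays, limma's trend and robust options took 2 calls in the mean of both times. These were Hsd17b6 between the HFDs (adjusted p = 0.103) and Cdh1 on HFD-corn oil vs. control (adjusted p = 0.0979). A separate limma fit per week added Hsd17b6 between the HFDs at 12 weeks (adjusted p = 0.0206). The mean of the periportal genes ran from 11.64 to 11.75 on HFD-corn oil at 8 weeks, below the 11.80 to 11.93 of control and the 11.90 to 11.99 of HFD-EPA/DHA. At 12 weeks the groups were at 11.69 to 11.84, 11.83 to 11.93 and 11.80 to 12.02. Of 12 pericentral genes Lect2 alone was called, higher on HFD-corn oil vs. control (0.27 ± 0.066, adjusted p = 0.0324, 13 of the 23 refits). With all 24 arrays its difference was 0.09 (adjusted p = 0.862), and with array weights 0.24 (adjusted p = 0.119). In this comparison, over the mean of both times, 11 of the 12 were above 0 with a median of 0.17, against −0.020 over all probe sets. Of the 10 periportal genes 2 were above 0 there, with a median of −0.082. Of 9 hepatocyte genes Apoa1 alone was called, lower on HFD-EPA/DHA vs. control (−0.28 ± 0.072, adjusted p = 0.0443, 7 of the 23 refits). The part of the zone markers in the values of Ass1 and Oat was not tested.

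Markers of other cell types were not called in any comparison of diets. The lists were Kupffer cell and macrophage (10 of 10 measured), stellate cell (10 of 10), endothelial cell (10 of 10), cholangiocyte (6 of 8), lymphocyte and neutrophil (9 of 10), erythroid (1 of 6), pancreatic acinar (7 of 10) and adipocyte (5 of 6). The macrophage genes had a mean of 9.48 to 10.01 in control mice and 9.34 to 9.66 on HFD-EPA/DHA at 12 weeks, with 1 of 10 above 0 and 6 with an unadjusted p under 0.05. Of all 41345 probe sets, 3490 had such a p in this comparison. The adipocyte genes had a mean of 7.04 to 7.26 in control mice and 7.204 to 7.893 on HFD-EPA/DHA at 8 weeks, the groups in which Ddc differed, and their part in the Ddc value was not tested. The 7 acinar genes lay between 6.13 and 7.83, above 11.2% to 57.2% of all genes. The 6 cholangiocyte genes lay between 6.04 and 7.91, above 9.14% to 58.7% of all genes. The 9 hepatocyte genes had a mean of 12.73 to 12.90 in every array.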

How the data were processed

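The authors made 1 log2 value per probe set and array in Expression Console (background correction, iter-PLIER, quantile normalization, perfect match probes alone) and deposited these values. Their log2 scale was read from the range. Probe sets were named from the platform annotation, in which 23521 had 1 gene symbol, 1820 several and 16004 none. Groups came from the labels, and p-values measure the spread between single mice. The study housed several mice per cage and killed them over consecutive days, with only some of the diet groups on each day. The labels give neither cage nor day, so their part in the differences between diets was not tested. Arrays do not have a sequencing depth, and their number limits the precision.

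The 6 groups (23 arrays) were fitted together in limma 3.58.1 (R 4.3.3; lmFit, eBayes) for 15 comparisons, with no filter and no further normalization. Each p was two-sided, and the Benjamini-Hochberg adjustment ran over the 41345 probe sets. Errors after ± are standard errors unless given as SD. The mean of both times is the average of the 8- and 12-week differences.

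The members and gene lists were chosen with earlier results of these data known. By rule, all members were named, with the 2 genes most correlated with each. From each of 5 pathway lists up to 6 genes with the smallest p among those that passed in a comparison of diets were named, or otherwise 1. Zone and cell type genes were named where they passed. Promoter windows came from RefSeq (GRCm38.p6). The fit was tested on simulated arrays.

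The alternatives kept all 24 arrays (plain or with array weights), added 16 to the linear signals, dropped probe sets at or below the median level or without a single symbol, quantile-normalized again, centred each array on its median, fitted weeks or diets separately, used trend and robust options in eBayes, blocked on the replicate number, averaged the probe sets of each gene, or left out 1 array at a time. The plots used matplotlib 3.10.9 (Python 3.11.15).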

Additional observations from a re-analysis of the deposited data

Results flagged for a closer look

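Single arrays far from the other 3 of their group were sought by Dixon's test in groups of 4, which picks about 1 group in 20 by chance. Among 45 groups of the members, 2 had such an array. The highest Otc value of control mice at 8 weeks was 12.6344, with the nearest of the others at 12.57. The lowest Glul value of HFD-EPA/DHA mice at 12 weeks was 12.0719, with the nearest at 12.24.

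Among 50 groups of the other named genes, 4 had such an array. The lowest control mouse at 12 weeks was at 9.46672 for Gpt (nearest 10.04) and at 11.8243 for Gcdh (nearest 12.06), and the lowest control mouse at 8 weeks was at 11.9187 for Abat (nearest 12.00). The highest HFD-EPA/DHA mouse at 8 weeks was at 10.0462 for Ppargc1a (nearest 9.30).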

How the results depend on the processing

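The number of members called in each of the 15 comparisons was the same under every other setting run and with each array left out in turn. Ddc on HFD-EPA/DHA vs. control at 8 weeks lay between 1.06 and 1.09 under 11 other settings (adjusted p from 0.00338 to 0.0443), and in the mean of both times between 0.73 and 0.75 under 10, and between 0.64 and 0.84 with an array left out. It passed in each. Nothing in the labels makes the replicate numbers a pairing, and in 55 pairs of arrays sharing a number across groups the deviations from the group means correlated at −0.308 to 0.26 (over 0.1 in 14). With the replicate number as a block, 1 member (Ddc) was called at 8 weeks on HFD-EPA/DHA vs. control, 1 (Ddc) in its mean of both times and 0 in the other 13 comparisons. In the mean of both times on HFD-EPA/DHA vs. control the block took the calls of Bckdhb (adjusted p = 0.0768), Aldh7a1 (adjusted p = 0.0704) and Apoa1 (adjusted p = 0.0704), and Ppargc1a passed (adjusted p = 0.0299). Ppargc1a also passed there with array weights (adjusted p = 0.0271), with 1 symbol (0.0414) and as means over probe sets (0.0424). On HFD-corn oil vs. control Ppargc1a passed with the block (−0.77, adjusted p = 0.03) and with array weights (−0.71, adjusted p = 0.0449). Under several other settings Afmid on HFD-EPA/DHA vs. control (adjusted p down to 0.0215) and Prodh on HFD-corn oil vs. control (adjusted p down to 0.028) passed as well in the mean of both times. So did Abat on HFD-corn oil vs. control (adjusted p = 0.0421). At 12 weeks other settings added calls on HFD-EPA/DHA vs. control for Gcdh (adjusted p down to 0.00862), Hibadh (0.0134), Cdh1 (0.0296) and Aldh7a1 (0.0341). Hibadh also passed on HFD-corn oil vs. control at 12 weeks (adjusted p down to 0.016). With all 24 arrays and no weights the 6 named genes of amino acid catabolism lost every call, and so did Hsd17b6, Cdh1, Lect2 and Apoa1. In the mean of both times on HFD-EPA/DHA vs. control, in which the added array has no part, the differences stayed at 0.27 for Mccc2 (adjusted p = 0.504), 0.21 for Hibadh (adjusted p = 0.717) and 0.24 for Gcdh (adjusted p = 0.113), with larger SE. With array weights the calls of Mccc2 and Gcdh there were kept and that of Hibadh was not (adjusted p = 0.0588). Counts over all probe sets moved more. On HFD-corn oil vs. control at 8 weeks 305 were called, against 103 with the replicate block, 112 as means over the probe sets of a gene, 138 with 1 symbol, 150 with trend and robust settings, 164 above the median, 567 with array weights, and 30 to 476 with 1 array left out. In its mean of both times 791 became 479 with 1 symbol and 442 as means over probe sets, and at 12 weeks 74 became 45 with all 24 arrays. On HFD-EPA/DHA vs. control 183 at 8 weeks became 118 with all 24 arrays and 348 with array weights, and 255 at 12 weeks became 147 with all 24. Between the HFDs 11 at 8 weeks became 6 with a separate fit per week, 4 at 12 weeks became 7 with array weights and 2 as means over probe sets, and 27 in the mean of both times became 16 with all 24 arrays and 42 with array weights. In control mice at 12 vs. 8 weeks 4 became 39 with a separate fit per diet, 18 with array weights, 10 above the median, 7 with 1 symbol, 7 as means over probe sets and 0 with all 24 arrays. The cause of these changes was not tested. With 3 or 4 mice per group, the 95% CI of Ass1 on HFD-EPA/DHA vs. control at 8 weeks still ran from −0.34 to 0.74.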
